A study of Mus musculus with 10 samples.

Results

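The Schlafen genes SLFN1, SLFN2, SLFN3, SLFN4, SLFN5, SLFN8 and SLFN9 were followed through RNA-seq of mouse prostate organoids. These 7 genes were taken by their symbols, in capitals as deposited, from 24043 gene rows of the DZNep table and 24016 usable rows of the Tamoxifen table, and each was found in both. The family was chosen by the level of SLFN2, much higher with DZNep than with DMSO, so every DZNep value of a Schlafen gene is given as a description without a test. The Tamoxifen libraries played no part in that choice and were tested.

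Schlafen genes form a cluster in the mouse genome and several of them are known to be induced by type I interferon, the cytokine that signals through IFNAR1 and IFNAR2 to a transcription factor complex that holds STAT2 and IRF9. The short members, SLFN1 and SLFN2, hold little more than the conserved Schlafen core. SLFN3 and SLFN4 are of intermediate length, and SLFN5, SLFN8 and SLFN9 are long and add a helicase-like region. SLFN2 is known for holding T cells in quiescence and for shielding transfer RNAs from the ribonuclease angiogenin, and the related human protein SLFN11 cleaves transfer RNAs and acts at stressed replication forks. In the gene models of GENCODE M21 the longest proteins had 337 residues for SLFN1, 378 for SLFN2, 640 for SLFN3, 602 for SLFN4, 884 for SLFN5 and 910 each for SLFN8 and SLFN9.

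All 10 libraries came from organoids, 3-dimensional cultures of the dorsal-lateral prostate lobe of C57BL/6 mice aged 8 weeks, that carried cMYC overexpression, floxed EZH2 alleles and PSA-CreERT2, a Cre recombinase that Tamoxifen switches on and that the PSA promoter drives. The medium of every group held 10 nM R1881, a synthetic androgen. The chemical experiment had 3 libraries given DMSO, the vehicle, and 3 given 1 µM DZNep. The genetic experiment had 2 given EtOH, the vehicle, and 2 given 1 µM Tamoxifen, and all RNA was taken at 3 days. DZNep inhibits S-adenosylhomocysteine hydrolase and served here as an inhibitor of EZH2, the methyltransferase of Polycomb repressive complex 2. Control and treated organoids thus shared the oncogene, the floxed alleles and the recombinase, and cells with an inactive PSA promoter would carry no recombinase. The labels name no separate cultures or animals for the replicates, so p-values measure only how far these libraries differ from each other, perhaps for technical reasons.

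Promoter sequences are shown first, because the members differ in the letters found just ahead of their starts. RefSeq promoter windows (build GRCm38.p6, 250 bases before to 50 after each annotated start) were found for 7 of 7 members, 8 windows in all, with 2 for SLFN8. Positions are counted back from the annotated start, with -1 the base before it. The letters searched, on both strands, began with the core of the interferon-stimulated response element (ISRE), to which IRF9 binds, and which is GAAA, any 2 bases and GAAA again. A composite element of ETS factors and interferon regulatory factors was GGAA, any 2 bases and GAAA. The others were ACTTCCTG, an ETS core, TTCNNNGAA, the gamma-activated site, and AANNGAAA, a half-site of interferon regulatory factors. The letters were chosen after the sequences had been seen.

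SLFN2 had the composite element and no ISRE core. The composite lay at -59 to -50 and is in capitals below, read on the other strand as TTTC, 2 bases and TTCC. It overlaps an ETS core that starts at -55. The stretch is chr11:83065013-83065102 on the plus strand.
SLFN2: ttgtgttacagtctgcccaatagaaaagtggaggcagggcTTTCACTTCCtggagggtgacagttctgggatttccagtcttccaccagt

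The 3 long genes each had the ISRE core. It is in capitals in the stretches of SLFN9 (chr11:82991831-82991915, minus strand, core at -45 to -36), SLFN8 (chr11:83020811-83020898, minus strand, core at -48 to -39) and SLFN5 (chr11:82951907-82951996, plus strand, core at -155 to -146). In SLFN9 and SLFN8 it is read on the other strand as TTTC, 2 bases and TTTC, and these promoters share an identical run of 20 bases.
SLFN9: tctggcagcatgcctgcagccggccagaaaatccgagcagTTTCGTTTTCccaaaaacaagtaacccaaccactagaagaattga
SLFN8: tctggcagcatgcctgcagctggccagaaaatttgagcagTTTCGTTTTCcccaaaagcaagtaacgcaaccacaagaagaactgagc
SLFN5: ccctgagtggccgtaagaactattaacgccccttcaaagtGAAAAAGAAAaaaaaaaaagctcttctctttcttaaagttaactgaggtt

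SLFN1, SLFN4 and SLFN3 had neither of these elements and each held the ETS core, in capitals in the plus-strand stretches chr11:83116706-83116793 (SLFN1, core at -74), chr11:83175073-83175160 (SLFN4, core at -73) and chr11:83191248-83191329 (SLFN3, core at -42, with another on the other strand at -60). The SLFN1 and SLFN4 promoters share a run of 15 bases.
SLFN1: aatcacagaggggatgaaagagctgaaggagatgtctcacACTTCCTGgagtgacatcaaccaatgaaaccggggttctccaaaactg
SLFN4: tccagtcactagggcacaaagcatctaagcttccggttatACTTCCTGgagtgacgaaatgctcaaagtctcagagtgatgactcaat
SLFN3: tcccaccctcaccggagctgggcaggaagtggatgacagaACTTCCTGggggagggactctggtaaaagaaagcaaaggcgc

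The ISRE core was thus found in SLFN5, SLFN8 and SLFN9 and the ETS core in SLFN1, SLFN2, SLFN3 and SLFN4. Of 32851 RefSeq promoter windows of this length, 3.44% held the ISRE core, 2.72% the composite, 3.33% the ETS core and 8.30% the gamma-activated site, which no Schlafen window held. The half-site was in all 7 members and in 23.9% of windows, and it lies inside every ISRE core and composite. A match describes letters in these windows, and binding was not measured.

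Values are RPKM, reads scaled to gene length and to the size of the library, and each library listed between 15021 and 15404 genes above 0. Read depth is unknown from these values. EZH2, the targeted gene, was at 30.4, 29.8 and 27.1 RPKM with DMSO and at 22.5, 24.2 and 24.7 with DZNep, a fall of 0.28 in log2(RPKM + 1) (SE 0.0612, limma adjusted p = 0.0142), which became adjusted p = 0.0641 without DMSO 2. EZH2 was at 27.9 and 34.0 RPKM with EtOH and at 32.0 and 33.2 with Tamoxifen, a difference of 0.08 (limma adjusted p = 0.635), and a whole-gene value does not check the deletion of floxed exons. Of 8 epithelial markers, among them KRT5 and EPCAM, all passed the expression filter. Their summed level was 6337 to 6606 RPKM with DMSO and 7684 to 7906 with DZNep. It was 6602 to 6746 with EtOH and 5480 to 5690 with Tamoxifen. With DZNep 3 of the 8 were called higher and 0 lower, against 16.6% of all genes higher. With Tamoxifen 0 were called higher and 1 lower, KRT14 (log2 difference -0.49, limma adjusted p = 0.0424), against 1.38% of all genes lower. Their part in the Schlafen values was not tested. The prostate secretory gene PBSN was listed at 0 in all libraries.

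Of 20 immune markers found, 3 passed the expression filter (CD68, CD52 and S100A8). PTPRC, the pan-leukocyte marker, reached at most 0.00494 RPKM in any library, and CD4, CD8A, ITGAX, EMR1 and TYROBP were listed at 0 in all 10. The summed level of these 20 markers was 17.3 to 20.6 RPKM with DMSO and 23.9 to 25.7 with DZNep, where S100A8 rose (log2 difference 1.07, limma adjusted p = 0.0299), and it was 13.9 to 18.8 with EtOH and 15.6 to 17.5 with Tamoxifen. Most of this sum was CD68, at 13.5 to 17.9 RPKM in the chemical experiment and 11.6 to 14.3 in the genetic one. The summed level of 11 fibroblast and smooth muscle markers was 4.37 to 5.81 RPKM with DMSO and 9.33 to 10.3 with DZNep, and 4.97 to 5.29 with EtOH and 4.70 to 5.77 with Tamoxifen. Of the 11, 3 passed the filter in the chemical experiment. With DZNep 2 of these were called higher and 1 lower, against 16.6% and 11.1% of all genes. COL3A1 and DES were listed at 0 in all libraries. The part of these sums in the Schlafen values was not tested. In bulk libraries fewer cells of a type and less RNA per cell cannot be told apart.

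SLFN2 and SLFN9 made up nearly all Schlafen RNA of these organoids. Together they held 97.5% to 98.5% of the summed level of the 7 genes in each library, and these 2 members reached the expression filter, a mean of 1 RPKM. With DMSO they stood level, as SLFN2 ranged from 8.72 to 9.58 RPKM and SLFN9 from 8.76 to 9.26. SLFN8 followed at 0.355 to 0.436, SLFN4 at 0.00933 to 0.0287 and SLFN5 at 0.00403 to 0.00466, and these ranges lay apart from each other. SLFN1 and SLFN3 were listed at 0 in every DMSO library. The other 3 groups had the same order except that SLFN2 stood clear of SLFN9, and that in DZNep the ranges of SLFN1, SLFN5 and SLFN3 overlapped.

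**Figure D1:**
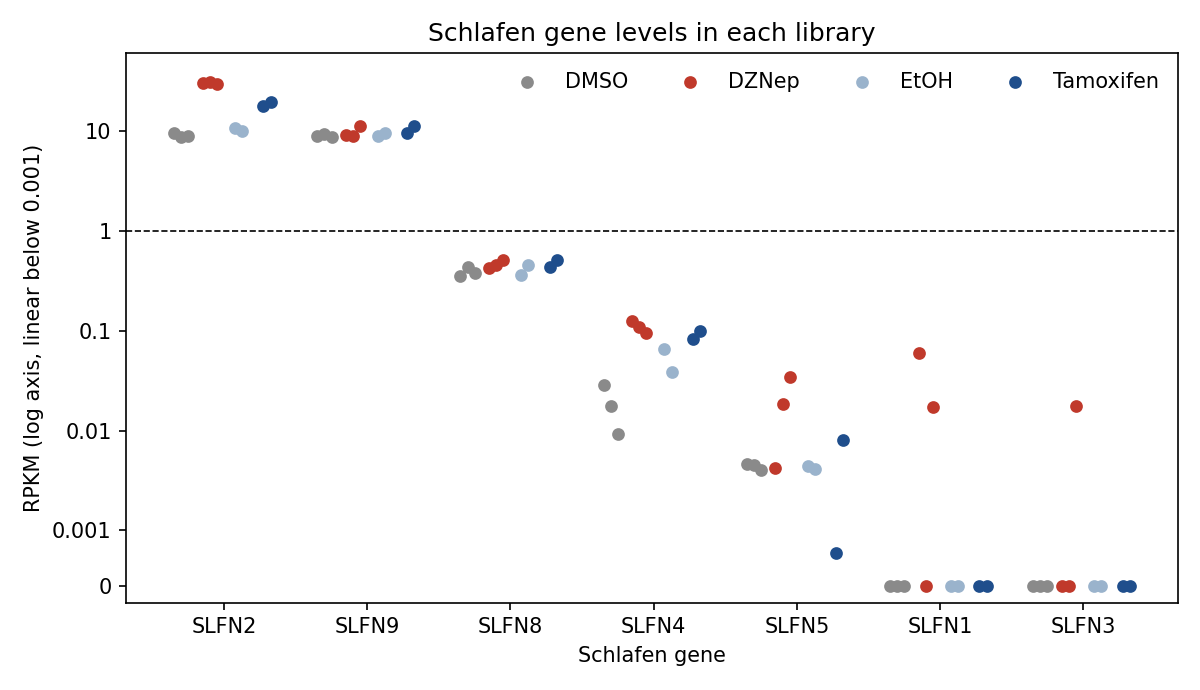
Level of each Schlafen gene in each of the 10 libraries, in RPKM on a log axis that is linear below 0.001, with 1 point per library coloured by group and a dashed line at the filter of 1 RPKM. SLFN2 and SLFN9 lie above the line in every library and the other 5 genes lie below it.

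SLFN2, the short member that protects transfer RNAs, was 3.32-fold higher with DZNep. It stood at 9.58, 8.72 and 8.81 RPKM in the DMSO libraries (9.04 ± 0.473, SD, n = 3) and at 29.8, 30.6 and 29.6 in the DZNep libraries (30.0 ± 0.486, SD, n = 3). All 3 treated libraries were alike and far above the vehicle libraries, with ratios of single treated to single vehicle libraries from 3.09 to 3.50. The difference in mean log2(RPKM + 1) was 1.63, the 42nd highest of 11143 genes, against a median of 0.01 over those genes. Of them, 27.7% were called, 16.6% higher and 11.1% lower, at a limma adjusted p under 0.05, and as this contrast chose the family nothing is read from SLFN2's place among them.

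With Tamoxifen SLFN2 rose 1.80-fold. It was at 10.6 and 10.0 RPKM with EtOH (10.3 ± 0.405, SD, n = 2) and at 17.6 and 19.5 with Tamoxifen (18.5 ± 1.34, SD, n = 2). Both treated libraries lay above both vehicle libraries, as in 36.6% of the 11123 genes tested, and single ratios ran from 1.66 to 1.94. The log2 difference was 0.79 (SE 0.0697, limma adjusted p = 0.0263), the 87th highest of 11123 genes, of which 2.07% were called, 0.692% higher and 1.38% lower. The call rests on both Tamoxifen libraries, since the adjusted p was 0.114 without Tamoxifen 2 and 0.0514 without Tamoxifen 1, and it was 0.117 when all genes above 0 were tested. An exact two-sided permutation test of SLFN2 gave p = 0.333, the smallest that 2 libraries against 2 can give.

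The Tamoxifen and DZNep tables were fitted apart, and nothing says that they were normalized together. Set side by side, the log2 differences of SLFN2 were 1.63 with DZNep and 0.79 with Tamoxifen, and the difference between them was not tested.

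**Figure D2:**
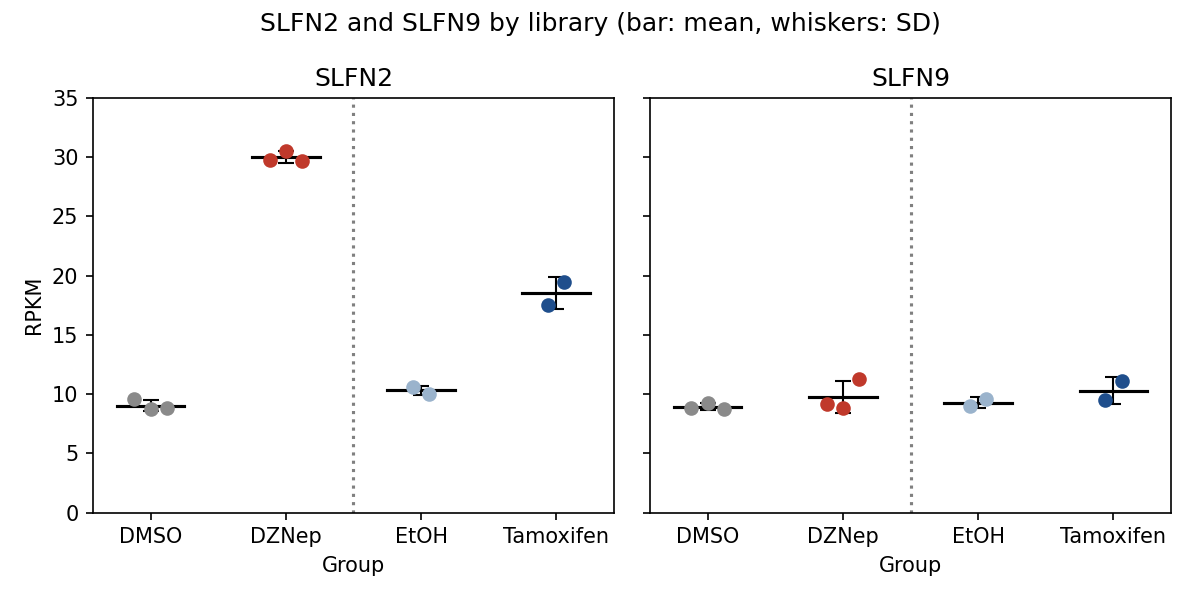
SLFN2 (left) and SLFN9 (right) in RPKM by group, with 1 point per library, a bar at the group mean and whiskers of 1 SD. SLFN2 lies near 30 RPKM in all 3 DZNep libraries and at 17.6 and 19.5 in the Tamoxifen libraries, while SLFN9 stays between 8.76 and 11.3 in all 10.

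SLFN9, a long member with the helicase-like region, lay between 8.76 and 11.3 RPKM in all 10 libraries. It was at 8.82, 9.26 and 8.76 RPKM with DMSO and at 9.13, 8.80 and 11.3 with DZNep, a log2 difference of 0.10. The DZNep libraries 1 and 2 lay within the DMSO range, so the groups overlapped, and DZNep 3 stood above it. With EtOH it was at 8.96 and 9.59 and with Tamoxifen at 9.50 and 11.1, again overlapping, and by limma the difference of 0.14 (SE 0.0859) had an adjusted p of 0.356. The exact permutation p of SLFN9 with Tamoxifen was 0.667. The difference in response between SLFN2 and SLFN9 was not tested.

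The balance between the 2 abundant members was compared within each library. The ratio of SLFN2 to SLFN9 was 0.942 to 1.09 in DMSO libraries and 2.63 to 3.47 in DZNep libraries, and 1.05 to 1.18 in EtOH against 1.75 to 1.85 in Tamoxifen libraries. SLFN2 supplied 47.3% to 51.0% of the family's summed level with DMSO and 71.3% to 76.5% with DZNep. In the genetic experiment it supplied 49.8% to 53.0% with EtOH and 62.4% to 63.7% with Tamoxifen. The summed level of the 7 genes went from 18.0 to 18.8 RPKM with DMSO to 39.5 to 41.6 with DZNep, and from 20.0 to 20.1 with EtOH to 27.6 to 31.2 with Tamoxifen. The SLFN2 part of these sums with DZNep follows from how the family was chosen.

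SLFN8, the long member closest to SLFN9 in sequence, was low, and neither treatment separated it from its vehicle. It was at 0.355, 0.436 and 0.373 RPKM with DMSO and at 0.428, 0.452 and 0.509 with DZNep, and at 0.360 and 0.454 with EtOH and 0.438 and 0.508 with Tamoxifen. The groups overlapped in both experiments. SLFN9 stood 19.5 to 24.9 times above SLFN8 in every library. The coding sequences of SLFN8 and SLFN9 were 92.7% identical, and 9.30% of the 50-base words in SLFN8's transcripts also occur in SLFN9's. The treatment of multiply aligned reads is not stated in the sources used here, so the split of reads between SLFN8 and SLFN9 is uncertain.

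SLFN4, an intermediate member known from macrophages, was at the edge of detection. It was at 0.0287, 0.0174 and 0.00933 RPKM with DMSO and at 0.125, 0.109 and 0.0951 with DZNep. With EtOH it was at 0.0649 and 0.0382, and with Tamoxifen at 0.0832 and 0.0999. All treated libraries lay above all vehicle libraries in both experiments, and SLFN4 and SLFN2 were the 2 of 7 members of which this held. Among all genes above 0 in at least 1 library, 20.7% had treated values wholly above the vehicle values with DZNep and 30.4% with Tamoxifen. SLFN4 did not pass the filter, and with no filter its Tamoxifen difference of 0.05 had a limma adjusted p of 0.275. SLFN4 transcripts share 1.72% of their 50-base words with SLFN2, whose level was far higher in every library, and the part of shared reads in SLFN4's values was not tested.

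SLFN5, SLFN1 and SLFN3 were close to or at 0. SLFN5, a long member, was at 0.00403 to 0.00466 RPKM with DMSO and at 0.00425, 0.0185 and 0.0346 with DZNep. It was at 0.00443 and 0.00413 with EtOH and at 0.000593 and 0.00810 with Tamoxifen, and groups overlapped in both experiments. SLFN5, whose promoter holds an ISRE core, thus had little RNA in every library. SLFN1, a short member, was above 0 in DZNep 1 (0.0596 RPKM) and DZNep 3 (0.0173), and SLFN3 in DZNep 3 (0.0177), and both were listed at 0 in the other libraries. At unknown depth, values this low do not separate the groups.

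Other Schlafen rows outside the 7 were looked at as well. SLFN10-PS, a pseudogene between SLFN8 and SLFN2, was at 0.435 to 0.540 RPKM with DMSO and 0.775 to 0.851 with DZNep. It was at 0.645 and 0.656 with EtOH and at 0.717 and 0.871 with Tamoxifen, so treated libraries lay above vehicle libraries in both. Among all genes above 0 in at least 1 library, this held for 20.7% with DZNep and 30.4% with Tamoxifen. Of the 50-base words of SLFN10-PS, 19.7% also occur in another Schlafen gene, and the same uncertainty holds for it. SLFN14 was listed at 0 except in Tamoxifen 2 (0.00670 RPKM), and the antisense transcript SLFN5OS was listed at 0 in every library.

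The genes on either side of the cluster were compared with its members. In the order of the RefSeq gene table the cluster runs SLFN5, SLFN9, SLFN8, SLFN2, SLFN1, SLFN4 and SLFN3, so SLFN2 lies among members that were flat, low or near 0. Of 11 protein-coding genes on either side, SLFN14 among them, 5 passed the filter. With DZNep 2 of the 5 rose by limma, the DNA ligase gene LIG3 (log2 difference 0.34, adjusted p = 0.0017) and the ubiquitin ligase gene RFFL (0.23, adjusted p = 0.0212), and none fell. Of all genes tested, 27.7% were called, 16.6% higher. The differences of the 5 ran from 0.11 to 0.34 with a median of 0.14. RFFL was not called without DMSO 2, DZNep 2 or DZNep 3 (adjusted p = 0.0659, 0.0627 and 0.0550), and NLE1 was called without DMSO 1 (0.0327). With Tamoxifen 0 of the 5 were called by limma, and 0 had an unadjusted p under 0.05, against 25.5% of all genes tested. Their differences ran from -0.01 to 0.32, where that of SLFN2 was 0.79.

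**Figure D3:**
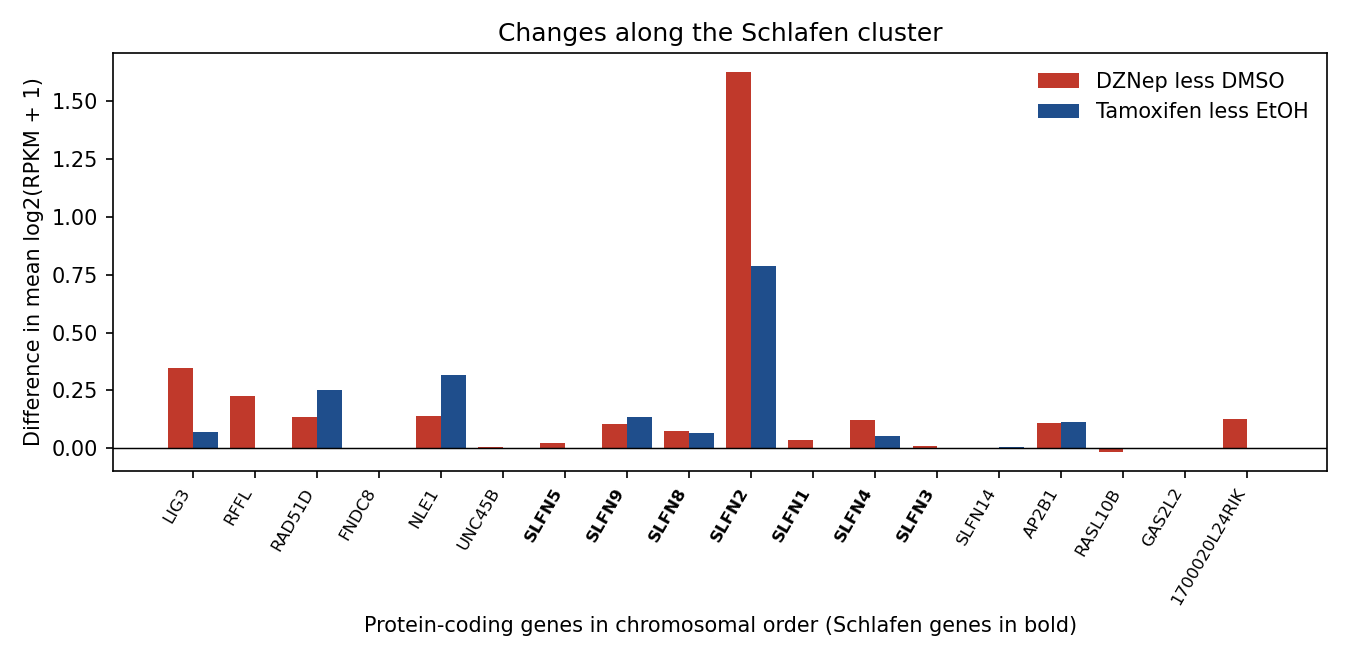
Difference in mean log2(RPKM + 1), treated less vehicle, for genes in chromosomal order across the Schlafen cluster, with DZNep and Tamoxifen drawn side by side. Names of the followed Schlafen genes are in bold, and SLFN14 is drawn as a flanking gene. With Tamoxifen SLFN2 stands at 0.79 and the tested flanking genes lie between -0.01 and 0.32, and the DZNep bar of SLFN2, at 1.63, is the value that chose the family.

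Genes of the interferon pathway that is known to induce Schlafen genes were given from lists, since SLFN2 is one such target. Of 6 genes for the type I interferon receptor, its kinases and the complex below them, 2 rose with DZNep and none fell. Among all genes, 16.6% were called higher with DZNep. STAT2 went from a mean of 4.78 to 12.1 RPKM (log2 difference 1.18) and IRF9, the DNA-binding subunit, from 12.3 to 35.2 (1.45). The receptor genes IFNAR1 and IFNAR2 and the kinase genes JAK1 and TYK2 were not called. With Tamoxifen IRF9 was called, at 11.1 against 18.0 RPKM (0.65, limma adjusted p = 0.0305), and STAT2 differed by 0.34 without passing (adjusted p = 0.0708, and 0.0455 without EtOH 2). The median of the 6 was 0.06 with DZNep and 0.13 with Tamoxifen, against 0.01 and 0.04 over all genes.

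Of 6 interferon regulatory factors that passed the filter, IRF7, which drives interferon genes, and IRF3, an early sensor-activated factor, rose with DZNep. The share of all genes called higher was 16.6%. IRF7 went from 5.68 to 21.9 RPKM (1.78) and IRF3 differed by 0.27 (limma adjusted p = 0.0043). With Tamoxifen IRF7 rose from 5.56 to 10.1 RPKM (0.76, limma adjusted p = 0.0263). The IRF7 and IRF9 calls with Tamoxifen were lost without Tamoxifen 1 (adjusted p = 0.0954 and 0.121), without Tamoxifen 2 (0.129 and 0.205) and with no filter (0.117 for both), as that of SLFN2 was.

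Interferon-stimulated genes other than Schlafen genes were counted next. With DZNep 38 of 39 tested rose and none fell, against 16.6% of all genes called higher, with a median log2 difference of 1.07. The filter takes the mean over vehicle and treated libraries, so a gene can pass it through high DZNep values alone. With no filter 45 of the list were called higher and 0 lower, against 1770 of all 17137 genes higher. With a filter of 5 RPKM 23 were called higher and 0 lower. ISG15, a ubiquitin-like modifier, went from 2.16 to 21.9 RPKM (2.86), and IFIT1, a sensor of foreign RNA ends, from 1.12 to 13.4 (2.77). With Tamoxifen 8 of 32 tested rose and none fell, against 0.692% of all genes called higher. Of the 32, 29 had a difference above 0 and 3 below, and the median was 0.35. At an unadjusted p under 0.05, 23 were higher and 1 lower, against 14.4% of all genes higher. OAS1A, which makes the activator of RNase L, went from 3.73 to 8.07 RPKM (0.94, limma adjusted p = 0.0305). The 8 became 3 without Tamoxifen 1 and 14 without EtOH 2, and 19 in the joint fit, 16 with robust variances and 5 with a filter of 5 RPKM. Without Tamoxifen 2 limma called 0, though 19 of 32 were higher at an unadjusted p under 0.05, as were 5.45% of all genes in that fit. With no filter limma also called 0, and 33 of 46 were higher at an unadjusted p under 0.05, against 10.7% of all genes. With Tamoxifen 6 of the 32 had a larger difference than SLFN2.

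**Figure D4:**
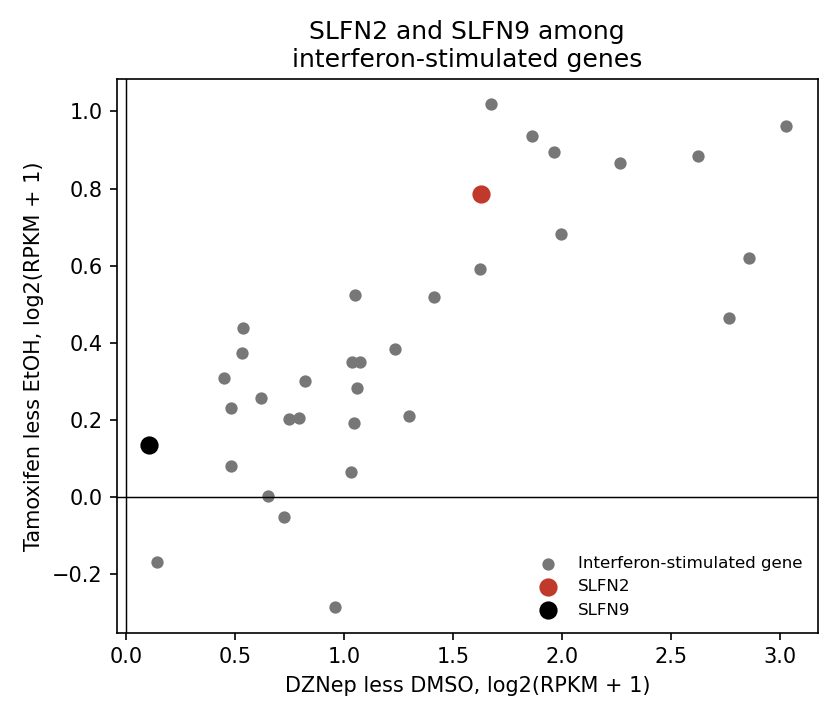
Differences in mean log2(RPKM + 1) with DZNep (horizontal) and Tamoxifen (vertical) for the interferon-stimulated genes tested in both experiments, 1 point per gene, with SLFN2 and SLFN9 marked. Of 32 genes, 29 lie above 0 on both axes, and SLFN9 lies near the origin. SLFN2 is drawn at 1.63 and 0.79, the first of which chose the family.

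Genes whose values over the 10 libraries were most like those of SLFN2 were found by the root mean square difference of log2(RPKM + 1), each less the vehicle mean of its table, among 10992 genes. The closest were LGALS3BP, a secreted galectin-binding glycoprotein (0.102), IRF7 (0.110), IRF9 (0.134), IGTP, an interferon-inducible GTPase (0.141), and BST2, the membrane protein tetherin (0.146), where the median over all genes was 0.955. This measure includes the DZNep values of SLFN2 that chose the family. It also includes the EtOH and Tamoxifen libraries. The Tamoxifen calls of these genes, given below, thus follow in part from how the genes were picked, and nothing is read from them. LGALS3BP was at 20.0, 19.5 and 20.1 RPKM with DMSO and 73.6, 65.0 and 60.1 with DZNep, and at 20.0 and 17.8 with EtOH and 34.3 and 39.3 with Tamoxifen. Like SLFN2 it had no overlap of treated and vehicle libraries in either experiment. Of all genes tested, 26.1% had treated values wholly above vehicle values with DZNep and 36.6% with Tamoxifen. BST2 ran from 10.5 to 11.0 RPKM with DMSO, 34.5 to 41.0 with DZNep, 9.76 to 10.8 with EtOH and 19.6 to 24.3 with Tamoxifen. With Tamoxifen LGALS3BP, IRF7, IRF9 and BST2 passed the test and IGTP did not (limma adjusted p = 0.0609, and 0.0379 without EtOH 2). The calls of LGALS3BP and BST2 were lost without Tamoxifen 2 (adjusted p = 0.114 and 0.0847) and with no filter (0.117 for both).

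**Figure D5:**
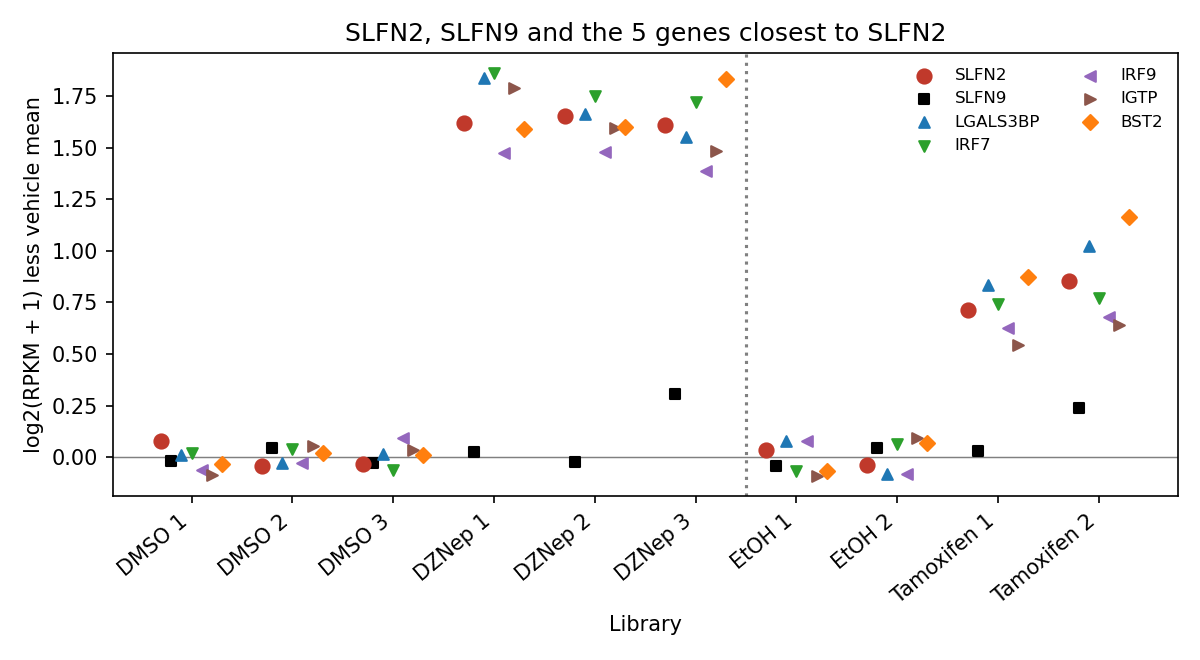
log2(RPKM + 1) less the vehicle mean of the same table, for SLFN2, SLFN9 and the 5 genes closest to SLFN2, 1 point per gene and library, with the chemical experiment left of the dotted line and the genetic one right of it. SLFN2 and its 5 closest genes stand above all vehicle values in the treated libraries, and SLFN9 stays near 0 in most libraries. The 5 genes were picked by these same values.

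For SLFN9 the closest genes were UBE3C, ERI2, TAF4B, AGTPBP1 and LZIC, at 0.0494 to 0.0602, where the median over all genes was 0.168. SLFN9's own values strayed from their vehicle means by 0.126 on the same measure, so likeness to SLFN9 here is likeness to a nearly level line.

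Genes tied to what Schlafen proteins do were set beside them. Of 11 tested genes for angiogenin and the handling of transfer RNAs, 3 rose and 1 fell with DZNep, against 27.7% of all genes called. ANG, the angiogenin gene, went from 5.63 to 9.59 RPKM (log2 difference 0.67, limma adjusted p = 4.36e-04), and ELAC2, which trims transfer RNA precursors, differed by 0.29. The calls of the export factor XPOT (0.19) and the methyltransferase ALKBH8 (-0.26) were each lost when any of 4 single libraries was left out, XPOT without DMSO 2, DMSO 3, DZNep 1 or DZNep 3 and ALKBH8 without DMSO 2, DMSO 3, DZNep 1 or DZNep 2. The median of this list was 0.06. With Tamoxifen 0 of the 11 were called by limma, 4 had an unadjusted p under 0.05, against 25.5% of all genes, and the median was 0.10. Without EtOH 2 the adjusted p was under the threshold for SSB (0.0436, lower), IKBKAP (0.0478) and RNH1 (0.0325).

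Of 12 genes of replication fork stress, where human SLFN11 acts, 2 fell with DZNep and none rose by limma. Among all genes, 11.1% were called lower and 16.6% higher. At an unadjusted p under 0.05 the list also had 2 lower and 0 higher. At that threshold 41.7% of all genes passed in either direction, and 24% were higher. CDT1, a replication licensing factor, differed by -0.41, and CUL4A, a ubiquitin ligase scaffold, by -0.16, a call lost when DMSO 2, DMSO 3, DZNep 1 or DZNep 2 was left out. The list's median was -0.06. With Tamoxifen 0 of the 12 were called by limma, 6 had an unadjusted p under 0.05, against 25.5% of all genes, and the median was 0.14. RPA2, a subunit of the single-strand binding protein, was called without EtOH 2 (adjusted p = 0.0362). Of the 6 core subunits of Polycomb repressive complex 2, EZH2 and SUZ12 (-0.23) fell and EZH1 (0.31) rose with DZNep. With Tamoxifen 0 of these 6 were called by limma and 1 had an unadjusted p under 0.05.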

How the data were processed

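RNA was sequenced from 10 organoid libraries. Per the labels' protocols, 500 ng of TRIzol-extracted RNA went into each stranded TruSeq mRNA library. The tools were bcl2fastq 2.18, STAR and Cufflinks and the build mm9, per the submitters' processing notes. In the sources used here, the handling of strand and of multiply aligned reads is not stated. The authors deposited log2 RPKM per gene, 1 table per experiment. The floor of 0 fits log2(RPKM + 1), from which RPKM was recovered. Left out of the genetic experiment were 27 rows with symbols turned into dates and 2 rows without values.

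Genes averaging 1 RPKM or more in a table were tested with limma 3.58.1 in R 4.3.3, two-sided with a mean trend, each experiment alone, adjusted by Benjamini and Hochberg over all tested genes at a threshold of 0.05. No count model was used, since the values are not counts. Differences are on the log2(RPKM + 1) scale, which understates changes of low genes. The procedure was tested on simulated data with independent noise for each gene and library. Such data cannot show how effects shared by the genes of a library would alter the calls. The members, lists and named genes were chosen with earlier results of these data known. Named were all members, EZH2, other Schlafen rows, the 5 genes closest to each tested member, 6 flanking genes a side, and up to 4 genes per list with the smallest p. Of these lists and flanking genes, 3 are not reported here and were left out of their counts. Other list genes were named after their values were seen. No list was tested as a set. Alternatives were a pseudocount of 0.1, filters of 0 and 5 RPKM, a joint fit, a replicate block, quantile and trimmed mean scaling, robust variances, no trend and leaving out each library. Sequences came from RefSeq (GRCm38.p6) and GENCODE M21, and no coordinates of the measured genes in mm9 are given.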

Additional observations from a re-analysis of the deposited data

How the results depend on the processing

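SLFN2 was higher in the treated libraries under every alternative run, by 1.60 to 1.72 with DZNep (1.72 at a pseudocount of 0.1; 1.63 in the main analysis) and by 0.72 to 0.86 with Tamoxifen, both ends being fits that leave out 1 Tamoxifen library. Its Tamoxifen call was lost with no filter (0.79, limma adjusted p = 0.117) and without Tamoxifen 1 or 2. In the other alternatives the adjusted p was 2.49e-04 to 0.0359. A lone library left in a group is assumed to vary like the others. SLFN9 differed by 0.03 to 0.24 with Tamoxifen and was never called (adjusted p = 0.196 to 0.915). SLFN4, SLFN5 and SLFN8 lie below the filter and with Tamoxifen were fitted with no filter alone, and SLFN1 and SLFN3, at 0 in those libraries, in no alternative.

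Deviations of same-numbered libraries correlated at 0.0591, 0.0590 and -0.0675 in the chemical experiment and at 0.0400 in the genetic one. Such low values cannot settle whether replicate numbers pair the libraries. With 2 libraries a group, deviations in the genetic experiment mirror each other and give only 1 value. With the replicate block DZNep calls went from 3088 to 1610 and Tamoxifen calls from 230 to 878, SLFN2 with Tamoxifen kept its call (adjusted p = 0.00617), EZH2 with DZNep did not (-0.28, adjusted p = 0.0588), and RFFL (0.0647), EZH1 (0.0576), XPOT, ALKBH8 and CUL4A lost theirs. With Tamoxifen the block called 17 interferon-stimulated genes in place of 8, and added STAT2 (0.0361), IRF1 (0.0481), IGTP (0.0284), IKBKAP (0.0482), RPA2 (0.0154), MCM3 (0.0494) and NLE1 (0.0352). The joint fit and robust variances also called STAT2 (0.0268 and 0.0422), IGTP (0.00863 and 0.0228), RPA2 (0.0246 and 0.0441) and IRF1 (0.0148 and 0.0454), and the joint fit CUL4B (0.0199). Leaving out 1 library gave 1522 to 3359 DZNep calls (1522 without DMSO 2, 1755 without DZNep 2), 37 to 977 Tamoxifen calls (37 without Tamoxifen 2, 50 without Tamoxifen 1, 977 without EtOH 2), and -0.33 to -0.24 for EZH2 with DZNep. Tamoxifen calls were 1053 in the joint fit, 646 with robust variances and 1 with no filter. Calls higher and lower with DZNep, 1850 and 1238, were 1635 and 1637 after quantile normalization. With Tamoxifen, 77 and 153, they were 429 and 449 with the block and 479 and 574 in the joint fit, and the balance turned without EtOH 2 (592 and 385), Tamoxifen 1 (29 and 21) or Tamoxifen 2 (23 and 14).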
